A study of Rhinolophus ferrumequinum with 8 samples.

Results

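Plasma cell and antibody secretion genes were followed across whole spleen of the greater horseshoe bat (Rhinolophus ferrumequinum). The set was 10 genes chosen by name: JCHAIN, MZB1, FKBP11, PRDM1, IRF4, TNFRSF17, SDC1, DERL3, POU2AF1 and TNFRSF13B. All 10 of 10 were present among the 19652 genes of the deposited table, and all 10 were among the 13542 genes that were tested, whose levels averaged 1 or more. The 8 libraries came from wild female bats in 4 states of 2 biological replicates each. Summer active bats were sampled in July, and bats in torpor, arousal and the winter active state in November. Torpor is the cold, low-metabolism phase of hibernation, and the arousal and winter active bats were sampled 2 h and 26 h after capture. No genotype, agent or age separates the groups in the labels, and the comparisons ask how spleen transcripts differ between hibernating and active states.

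Plasma cells are the end stage of the B-cell lineage. A B cell that commits to this fate shuts down its B-cell receptor programme under the repressor Blimp-1, expands its endoplasmic reticulum (ER) under the factor XBP1, and secretes assembled antibody. In spleen they lie mainly in the red pulp and outside the follicles, where the cytokines BAFF and APRIL help to keep them alive.

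Levels are given as rescaled TPM (TPM is a transcript abundance corrected for length and library size; the deposited columns do not add up as TPM would, so they are treated as rescaled between libraries), and state values are means ± SD of n = 2 libraries. Column totals ranged from 745098 to 1331820, and the table holds no read counts, which leaves the depth unknown. Differences between states are on the log2(value + 1) scale with their standard error (SE), and adjusted p-values are limma's with Benjamini-Hochberg adjustment over all 13542 genes, with 0.05 as the threshold. That scale understates the change of low genes such as TNFRSF17. In bulk tissue, fewer cells of a type and less RNA per cell cannot be told apart.

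Levels differed widely among the markers that give the set its name. JCHAIN, whose product links IgA and IgM subunits into polymers, ranked between 86 and 335 of 19652 genes in the 8 libraries. MZB1, an ER protein that helps IgM assembly, ranked between 284 and 1564. The BCMA gene TNFRSF17, a receptor largely restricted to plasma cells, stayed between 2.20 and 4.86, while the surface receptor gene TNFRSF13B averaged 73.5 over the 8 libraries and the secretory gene FKBP11 39.2. Another plasma cell surface gene, GPRC5D, was at most 0.42 in any library and was not tested.

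JCHAIN stood at 359 and 1065 in summer active 1 and 2, 1338 and 1611 in torpor, 951 and 693 in arousal, and 1682 and 1265 in winter active. All 4 torpor and winter active libraries lay above all 4 summer active and arousal libraries, and the summer replicates differed by 2.96-fold. Torpor exceeded summer active by 1.25 (SE 0.48, adjusted p = 0.273) and winter active exceeded it by 1.24 (SE 0.48, adjusted p = 0.303), so neither difference passed. The 2 summer libraries set the size: without summer active 1 the differences were 0.46 and 0.45, and without summer active 2 they were 2.03 and 2.02. Arousal differed from torpor by -0.85 (SE 0.48, adjusted p = 0.348).

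MZB1 had levels of 126 and 161 in summer active, 221 and 213 in torpor, 152 and 82.4 in arousal, and 389 and 189 in winter active. Its torpor and winter active libraries again lay above the other 4, with winter active 1 far above its replicate. The largest difference was between winter active and arousal, at 1.27 (SE 0.40, adjusted p = 0.825).

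FKBP11, an ER prolyl isomerase abundant in secretory cells, read 26.1 and 31.2 in summer active, 42.5 and 46.3 in torpor, 25.1 and 28.4 in arousal, and 73.8 and 40.2 in winter active. The same order held as for JCHAIN and MZB1. Winter active exceeded summer active by 0.91 (SE 0.29, adjusted p = 0.23) and arousal by 1.00 (SE 0.29, adjusted p = 0.825).

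TNFRSF17, which carries APRIL and BAFF survival signals into plasma cells, was at 2.27 and 2.91 in summer active, 3.67 and 4.21 in torpor, 2.37 and 2.20 in arousal, and 4.86 and 3.86 in winter active. Its 4 torpor and winter active libraries also lay above the other 4. Arousal differed from torpor by -0.59 (SE 0.26, adjusted p = 0.259), and winter active from arousal by 0.70 (SE 0.26, adjusted p = 0.825).

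**Figure D1:**
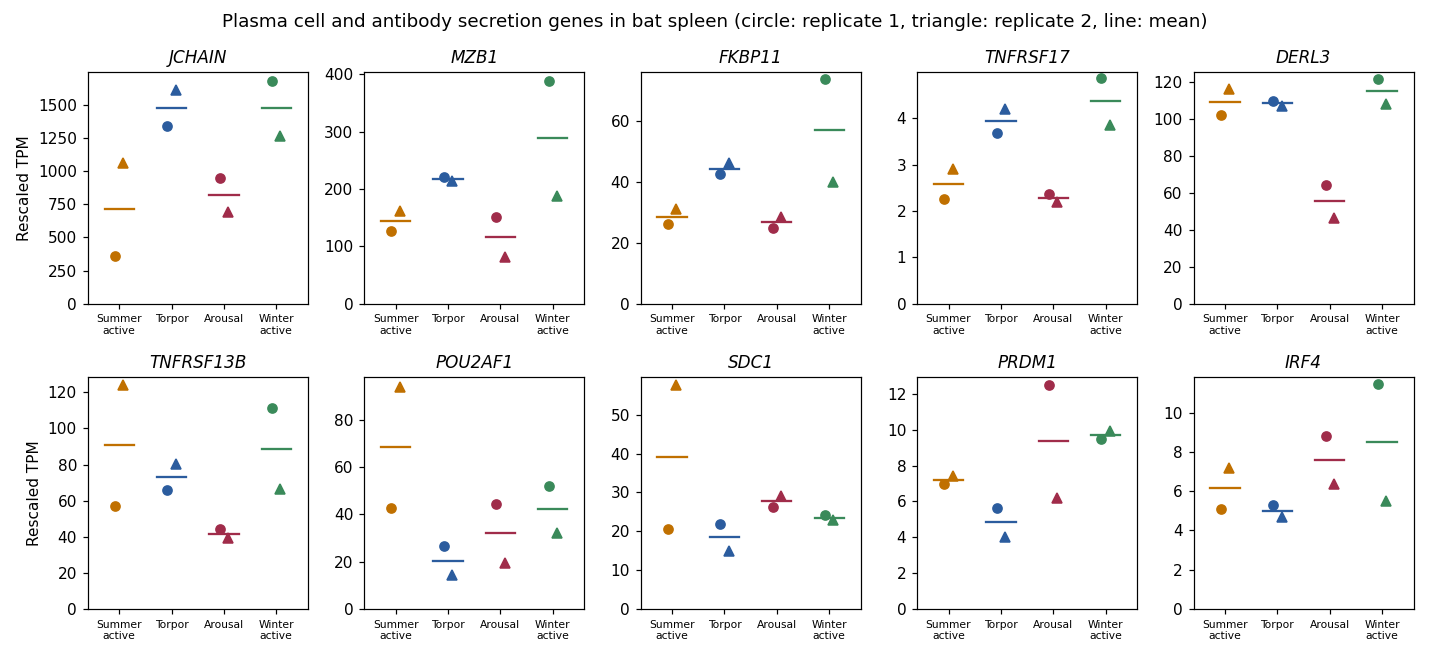
Levels of the 10 genes (y axis, rescaled TPM, from 0) in the 4 states (x axis); circles are replicate 1, triangles replicate 2 and lines the mean of both. In JCHAIN, MZB1, FKBP11 and TNFRSF17 every torpor and winter active library lies above every summer active and arousal library, with the closest pair for JCHAIN at 1265 against 1065.

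The order shared by these 4 of 10 members was noticed after their values were seen. Of all 13542 tested genes, 96 (0.709%) had both torpor and both winter active libraries above both summer active and both arousal libraries, and 0.842% showed the opposite order. The gap was narrow: the lowest torpor or winter active value was 1.19 times the highest summer active or arousal value for JCHAIN, 1.17 times for MZB1, 1.29 times for FKBP11 and 1.26 times for TNFRSF17. Because the pattern defined the grouping of states, no test was made of it.

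An antibody chain gene outside the member list had the same order. IGLL5, an immunoglobulin lambda-like gene, had rank 1 of all genes in all 6 November libraries and rank 5 in both summer libraries. Its levels were 28742 and 35716 in summer active, 82790 and 104589 in torpor, 46984 and 25721 in arousal, and 77407 and 66703 in winter active. It took between 2.25% and 2.68% of the column total in summer active and between 8.39% and 10.5% in torpor. Differences of torpor from summer active (1.54, SE 0.45, adjusted p = 0.184) and of arousal from torpor (-1.42, SE 0.45, adjusted p = 0.185) did not pass. Quantile normalization gives each rank 1 value in all libraries, and the rank of IGLL5 was the same in both replicates of every state. It thus left IGLL5 no spread between replicates. The difference of torpor from summer active was then 2.88, and limma's adjusted p (0.00129) measures no spread of this gene. In human this gene shares constant-region sequence with lambda light chains, so reads from such chains may be counted under it here and its level is uncertain. It was the only gene named with the prefix IGH, IGK or IGL in the table that stands for an antibody chain.

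DERL3 was the one member to pass in any comparison. Its product, Derlin-3, helps to move misfolded proteins out of the ER for degradation. DERL3 stood at 102 and 116 in summer active, 110 and 107 in torpor, 64.1 and 46.6 in arousal, and 121 and 108 in winter active. Both arousal libraries lay below all 6 others, which were within 102 to 121. DERL3 fell by 0.98 in arousal against summer active (SE 0.21, adjusted p = 0.0442). That made 1 of 10 members called, against 5.52% of all tested genes called in that comparison, or 3.14% in the lower direction. The difference from torpor was of like size (-0.97, SE 0.21) but missed the threshold (adjusted p = 0.143), as did that of winter active from arousal (1.05, SE 0.21, adjusted p = 0.825).

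The DERL3 call sat close to the threshold. It was lost without any 1 of the 8 libraries (adjusted p = 0.0649 to 0.150), the lowest without summer active 1 and the highest without summer active 2, and with columns rescaled to a common total the difference was -0.21 (adjusted p = 0.426). That rescaling moved the median of all genes in this comparison from 0.083 to 0.76, and relative to the median DERL3 lay at -1.06 before and -0.98 after.

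TNFRSF13B encodes TACI, a BAFF and APRIL receptor of B cells and plasma cells. Its levels were 57.1 and 124 in summer active, 65.7 and 80.2 in torpor, 44.3 and 39.1 in arousal, and 111 and 66.5 in winter active. As for DERL3, both arousal libraries were the lowest, while the summer replicates differed by 2.17-fold. Arousal differed from summer active by -1.0 (SE 0.39, adjusted p = 0.147).

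POU2AF1, the gene of the B-cell coactivator OCA-B, was at 42.8 and 94.1 in summer active, 26.5 and 14.4 in torpor, 44.3 and 19.6 in arousal, and 52.2 and 32.1 in winter active. Both torpor libraries lay below both summer libraries and below both winter active libraries, while summer active and arousal overlapped. Torpor differed from summer active by -1.65 (SE 0.53, adjusted p = 0.206), the largest difference in size among the members in that comparison.

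SDC1 encodes syndecan-1 (CD138), a cell-surface proteoglycan of plasma cells that many epithelia also carry. It had levels of 20.6 and 57.5 in summer active, 21.9 and 15.0 in torpor, 26.4 and 29.2 in arousal, and 24.2 and 22.8 in winter active. Summer active 2 stood apart, and the other 7 libraries lay between 15.0 and 29.2. Torpor differed from summer active by -0.89 (SE 0.44, adjusted p = 0.372). Without summer active 1, which leaves summer active 2 alone, the difference was -1.61 and passed (adjusted p = 0.0489).

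The 2 transcription factors of the fate change were low, between 4.01 and 12.5 in all libraries. PRDM1, the gene of the repressor Blimp-1, was at 6.96 and 7.42 in summer active, 5.66 and 4.01 in torpor, 12.5 and 6.19 in arousal, and 9.51 and 9.93 in winter active. Both torpor libraries were the lowest, and winter active exceeded torpor by 0.89 (SE 0.33, adjusted p = 0.344). IRF4, a factor needed for plasma cell formation that activated T cells and myeloid cells also express, read 5.08 and 7.19 in summer active, 5.31 and 4.66 in torpor, 8.81 and 6.34 in arousal, and 11.5 and 5.51 in winter active. Both arousal and both winter active libraries lay above both torpor libraries, with differences of 0.51 (SE 0.36, adjusted p = 0.451) and 0.59 (SE 0.36, adjusted p = 0.494), and the summer libraries overlapped with every other state.

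**Figure D2:**
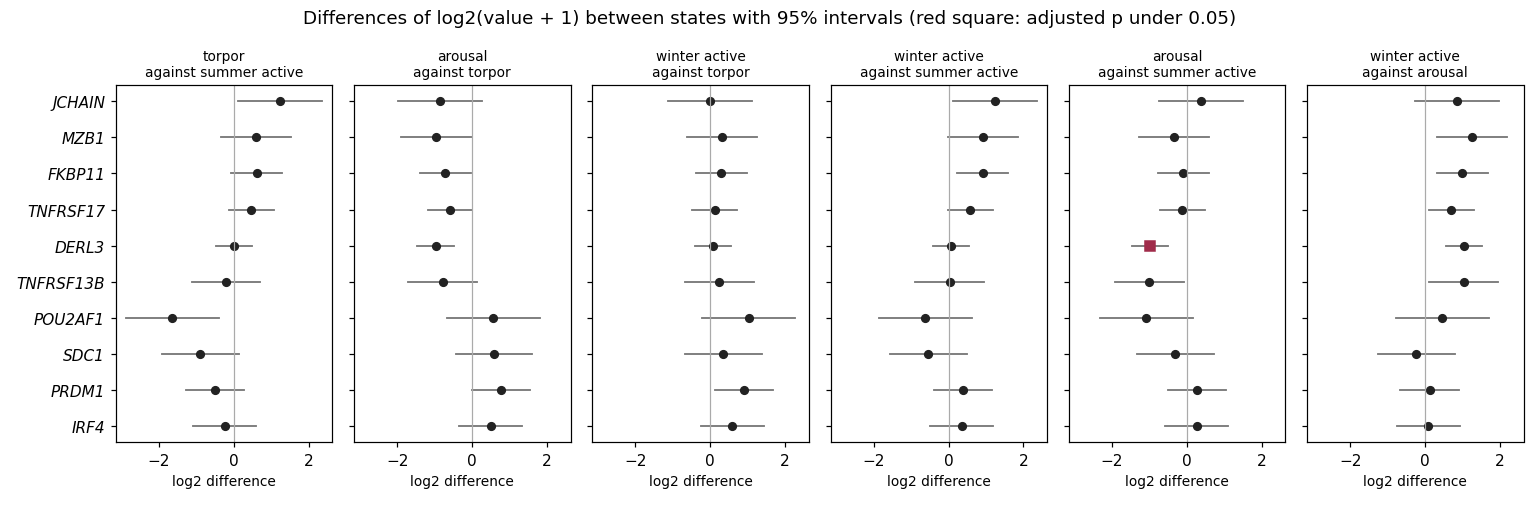
Differences of log2(value + 1) (x axis) for the 10 genes (y axis) in the 6 comparisons between states, with 95% intervals; a red square has an adjusted p under 0.05. The only such point is DERL3 in arousal against summer active, at -0.98.

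Few members passed in the comparisons with summer active. In arousal 1 of 10 passed, as given above, and 2 members (DERL3 and TNFRSF13B) were lower with no overlap between libraries, against 25.3% of all genes, while 0 were higher against 32%; in the higher direction 2.39% of all genes were called. In torpor 0 of 10 passed by limma (2 at an unadjusted p under 0.05, JCHAIN and POU2AF1, against 16% of all genes), where 0.561% of all genes did, 0.0738% higher and 0.487% lower. Libraries did not overlap for 4 members on the higher side and 2 on the lower side, against 20.4% and 26% of all genes. In winter active 0 of 10 passed by limma (2 at an unadjusted p under 0.05, JCHAIN and FKBP11, against 14.8% of all genes), where 1.03% of all genes did, 0.14% higher and 0.894% lower. There 5 members were higher with no overlap and 0 lower, against 27.2% and 21.9%.

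Where all 6 November libraries were set against summer active, 0 of 10 members passed by limma (2 at an unadjusted p under 0.05, JCHAIN higher and POU2AF1 lower, against 23.1% of all genes). Of all genes 2.92% passed, 0.657% higher and 2.26% lower. No member separated the 6 from the 2 libraries, against 9.37% of all genes on the higher side and 10.3% on the lower side. The member median was 0.088 against 0.029 for all genes.

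Within November none of the 13542 tested genes passed by limma in any of the 3 comparisons, so the percentage called was 0. In arousal against torpor 3 members had an unadjusted p under 0.05 (DERL3, FKBP11 and MZB1), all on the lower side, against 19.7% of all genes in either direction. There 6 members were lower and 3 higher with no overlap, against 22.2% and 31.9% of all genes, and the member median was -0.65 where that of all genes was 0.11. In winter active against arousal 5 members had an unadjusted p under 0.05 (DERL3, FKBP11, MZB1, TNFRSF17 and TNFRSF13B), all higher, against 5.45% of all genes in either direction. There 6 members were higher and 1 lower with no overlap, against 18.1% and 21.3% of all genes, and the median was 0.77 where that of all genes was -0.037. Both comparisons share the arousal libraries. In winter active against torpor PRDM1 alone had an unadjusted p under 0.05, against 13.2% of all genes. There 4 members were higher and 0 lower with no overlap against 29.6% and 21.3% of all genes, and the median was 0.30 where that of all genes was 0.079.

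Rescaling columns to a common total raised the November states against summer, with the all-gene median in all 6 November libraries moving from 0.029 to 0.54. On that scale 35.1% of all genes passed in this comparison, 33% higher and 2.13% lower, so that 4 of 10 members was near the background. The 4 were JCHAIN (1.54, adjusted p = 0.0234), FKBP11 (1.04, adjusted p = 0.0171), TNFRSF17 (0.72, adjusted p = 0.0356) and MZB1 (0.97, adjusted p = 0.0453). Relative to the all-gene median, JCHAIN lay at 0.93 as deposited and 1.00 after rescaling, FKBP11 at 0.45 and 0.50, TNFRSF17 at 0.28 and 0.19, and MZB1 at 0.36 and 0.43. Among the 33% of all genes called higher on that scale were also IGLL5 (1.52, adjusted p = 0.0165), XBP1 (1.23, adjusted p = 0.0120), TNFSF13B (1.12, adjusted p = 0.0134), MBTPS2 (1.04, adjusted p = 0.0159) and SPCS3 (1.10, adjusted p = 0.0131).

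Members differed in how they varied together. Over the 8 libraries, Pearson's r of log2 values was 0.95 for FKBP11 with TNFRSF17, 0.90 for MZB1 with TNFRSF17 and 0.88 for MZB1 with FKBP11. All 6 pairs among JCHAIN, MZB1, FKBP11 and TNFRSF17 had an r of at least 0.746, which follows in part from their shared order of libraries, by which they were grouped. The 45 member pairs ranged from -0.33 (TNFRSF17 with SDC1) to 0.95. DERL3 went most closely with TNFRSF13B (0.83), and SDC1 with POU2AF1 (0.75). These values share libraries and their scaling and are descriptive. Winter active 1 was the highest library for 6 members and summer active 2 for 3, while torpor 2 and arousal 2 were each the lowest for 4. Between replicates the members differed by a median of 1.17-fold in torpor, 1.35-fold in summer active, 1.37-fold in arousal and 1.48-fold in winter active.

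By Pearson's r over the 8 libraries, among 9586 named genes with a mean of at least 5, those nearest to JCHAIN were ISY1 (0.96), CD1E (0.92) and TMEM199 (0.90). Those nearest to MZB1 were TEN1 (0.96), the complement factor D gene CFD (0.92) and the small heat shock protein gene CRYAB (0.90). TNFRSF17 lay nearest to DPEP1 (0.95), NECAP2 (0.95) and TEN1 (0.92).

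B-cell identity genes were called on the lower side only. Of 21 such genes tested, 6 fell and 0 rose in arousal against summer active (median -0.96, against 0.083 for all genes, of which 3.14% were called lower), and 5 fell and 0 rose in all November libraries against summer (median -1.0, against 0.029, with 2.26% of all genes called lower). Of the 10 members, 7 had values below 0 in arousal against summer active, where 54.9% of all genes were above 0. They were MZB1, FKBP11, TNFRSF17, DERL3, SDC1, POU2AF1 and TNFRSF13B, of which FKBP11 differed by only -0.093 and TNFRSF17 by -0.12. With columns rescaled to a common total 7 of the 10 members were above 0, and the all-gene median was 0.76. The difference between the 2 sets of genes was not tested. VPREB3, of the B-cell list, fell by 2.77 in arousal (27.6 ± 5.75 against 192 ± 6.24, SE 0.20, adjusted p = 0.00171). In torpor VPREB3 fell by 2.97 (23.6 ± 0.301, SE 0.20, adjusted p = 0.00218). CD79B, a signalling chain of the B-cell receptor, fell by 2.48 in arousal (177 ± 6.76 against 995 ± 112, SE 0.29, adjusted p = 0.0105). CD79B missed the threshold without summer active 2 or either arousal library, and in a fit of the 2 states alone (adjusted p = 0.0549).

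Class switching and germinal centre genes also had calls on the lower side. Of 12 tested, 3 fell and 0 rose in November against summer active, where 2.26% of all genes were called lower. The median was -0.70, against 0.029 for all genes. GCSAM, a germinal centre signalling adaptor, fell by 3.05 (SE 0.38, adjusted p = 0.0106), with 29.8 and 83.5 in summer active and 2.60 to 7.22 in the 6 November libraries. MEF2B, a germinal centre transcription factor, fell by 2.44 (SE 0.34, adjusted p = 0.0167), from 34.9 and 71.4 to between 6.02 and 13.2. GCSAM lost the call without summer active 2 (adjusted p = 0.0736), and MEF2B lost it without summer active 2 (0.168) or either winter active library (0.0525 and 0.0586).

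The ratio of JCHAIN to CD79B within each library was 0.335 and 1.16 in summer active, 5.57 and 6.40 in torpor, 5.22 and 4.01 in arousal, and 4.43 and 6.17 in winter active. A ratio within a library does not depend on the scaling between libraries, and all 6 November values lay above both summer values. The same held for the ratio of JCHAIN to 15 of the 21 B-cell genes, CD79B included, and not for the other 6. How often it holds for the ratio of JCHAIN to any gene was not counted, so 15 of 21 has no background. JCHAIN itself was lowest in summer active 1, at 359. With CD22, for example, the ratio was 0.837 and 5.94 in summer active and 2.52 and 5.25 in arousal. IGLL5 over CD79B ran from 26.8 and 39.0 in summer active to 149 or more in every November library. These ratios were chosen after the values were seen and were not tested, and CD79B is among the B-cell genes that fell.

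**Figure D3:**
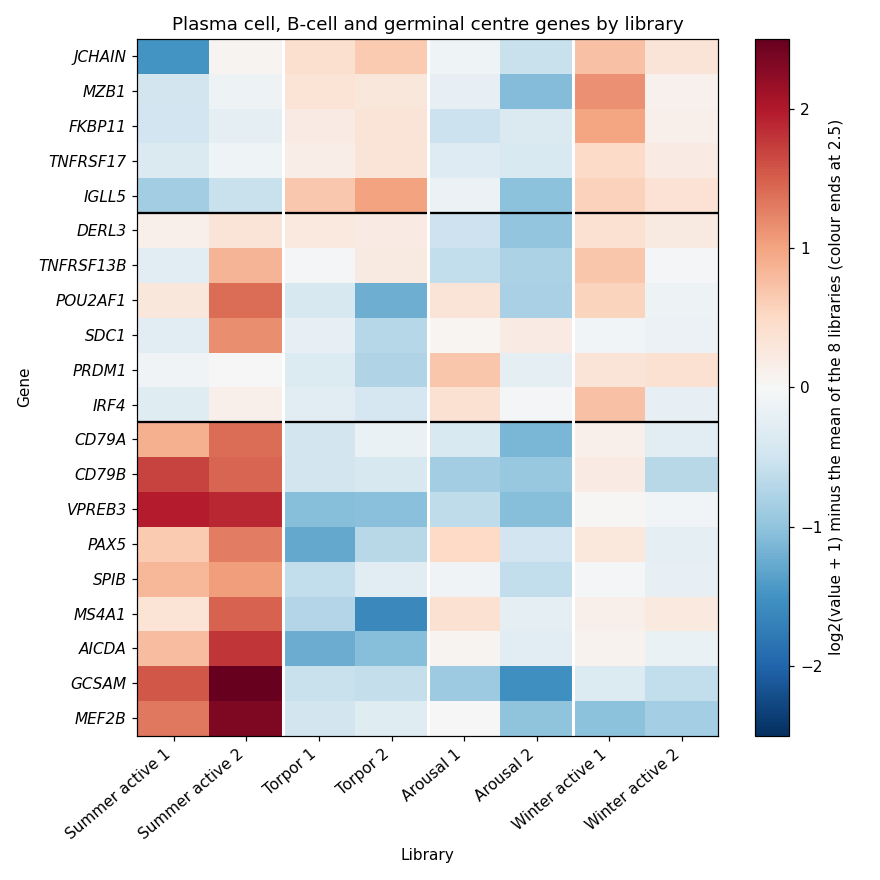
Heat map of log2(value + 1) minus the mean of the 8 libraries for plasma cell genes and IGLL5 (top), the other members (middle) and 9 B-cell and germinal centre genes (bottom), with libraries on the x axis; red is above and blue below the mean. The bottom block is red in both summer libraries, where VPREB3 averages 192, and the top block is red in the torpor and winter active libraries. The 9 genes are a part of the 21 B-cell and 12 germinal centre genes listed. BCL6, a listed B-cell gene not shown, went the other way, at 31.3 and 26.7 in summer active and 44.3 to 87.0 in November. Of the 21 B-cell genes, 1 was higher and 10 lower in November with no overlap between libraries.

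The ligands of the survival receptors did not pass. BAFF is encoded by TNFSF13B, which was at 17.3 and 23.4 in summer active, 32.4 and 34.7 in torpor, 27.9 and 26.8 in arousal, and 36.7 and 25.7 in winter active. All 6 November libraries were above both summer libraries, by 0.57 (SE 0.20, adjusted p = 0.149). The APRIL gene TNFSF13 was low, at 4.19 and 5.29 in summer active and between 2.44 and 4.17 in November, a difference of -0.49 (SE 0.21, adjusted p = 0.218). TNFRSF13C, the BAFF receptor gene of B cells, differed by -0.40 between torpor and summer active (SE 0.41, adjusted p = 0.667). Of the 5 genes of this axis, with TNFRSF17 and TNFRSF13B among them, 0 passed by limma in any of the 7 comparisons. Between 0 and 2 a comparison had an unadjusted p under 0.05, against 5.45% to 28.9% of all genes.

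Survival niche and homing genes had 1 of 20 tested higher in arousal against summer active and 0 lower, where 2.39% of all genes were called higher. IL6R, the interleukin-6 receptor gene, rose by 1.29 (20.2 ± 1.89 against 7.77 ± 2.12, SE 0.23, adjusted p = 0.0335). The call was lost whichever of the 8 libraries was left out. It was also lost with no filter (adjusted p = 0.0564) and in a fit of the 2 states alone (0.129). VCAM1, an adhesion molecule of stroma and macrophages, stood at 1625 ± 283 against 718 ± 278 (adjusted p = 0.0623). VCAM1 passed with a replicate block (0.0402), under quantile normalization (0.0232) and after rescaling (0.00798), where 43.1% of all genes were called higher. Leaving out 1 library moved the difference to between 0.82 and 1.63, the highest being without summer active 1. VCAM1 was at 915 in that library and at 521 in summer active 2.

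XBP1 drives the secretory expansion of plasma cells and serves the ER stress response of other cells. It was at 118 and 111 in summer active, 208 and 214 in torpor, 140 and 182 in arousal, and 198 and 153 in winter active. Every November library exceeded both summer libraries, by 0.65 (SE 0.17, adjusted p = 0.0886) overall and by 0.88 in torpor (SE 0.21, adjusted p = 0.134). Of 10 ER stress sensors and their factors, 0 passed by limma in that November comparison, where 2.92% of all genes did. There 3 of the 10 had an unadjusted p under 0.05, against 23.1% of all genes. The next smallest p was that of the protease gene MBTPS2 (difference 0.55, adjusted p = 0.149). Under quantile normalization XBP1 passed in November (0.75, adjusted p = 0.0493).

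Of 18 other plasma cell genes tested, 1 rose and 0 fell in arousal against summer active, a single call where 2.39% of all genes were called higher. It was FNDC3B, with 7.28 and 6.64 in summer active and 27.2 and 22.5 in arousal (difference 1.69, SE 0.34, adjusted p = 0.0401). Leaving out either summer active, arousal or winter active library ended this call. So did no filter (adjusted p = 0.0672) and a fit of the 2 states alone (0.103). The integrin gene ITGA4 stood at 118 ± 15.7 against 76.3 ± 2.56 (adjusted p = 0.0736). ITGA4 passed after rescaling (adjusted p = 0.00783), where 43.1% of all genes were called higher, as did STT3B of the glycosylation complex at the same adjusted p.

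Genes of the ER machinery that antibody secretion uses were mostly not called. Of 29 genes of entry into the ER, 1 rose in November against summer active, where 0.657% of all genes did. SRPRA, a subunit of the signal recognition particle receptor, rose by 0.88 (67.6 ± 13.1, n = 6 libraries, against 35.8 ± 1.82, SE 0.15, adjusted p = 0.0293), and by 1.16 in arousal against summer (adjusted p = 0.0238). The November call was lost on leaving out any library but arousal 2 (adjusted p up to 0.210). The arousal call was lost without summer active 2, either arousal or either winter active library. A fit of the 2 states alone lost it too (adjusted p = 0.118). The next were SPCS3 of the signal peptidase in November (0.53, adjusted p = 0.0989) and STT3B of the glycosylation complex in arousal (0.91, adjusted p = 0.0718).

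ER folding genes had 1 of 24 higher and 0 lower in arousal against summer active, a single call near the 2.39% of all genes called higher. ERO1B, an oxidase of disulphide formation, rose by 1.28 (26.9 ± 4.62 against 10.4 ± 1.42, SE 0.25, adjusted p = 0.0378). FKBP2, like FKBP11 an ER prolyl isomerase, stood at 73.7 ± 1.79 against 124 ± 18.1 (-0.74, adjusted p = 0.0622), and turned to 0.029 after rescaling.

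ER-associated degradation, the pathway of DERL3, had 2 of 16 genes higher and 0 lower in arousal against summer active, beside the 2.39% and 3.14% of all genes. SEL1L, a scaffold of the degradation complex, rose by 2.26 (34.8 ± 3.49 against 6.50 ± 1.11, SE 0.34, adjusted p = 0.0227). EDEM3, a mannose-trimming enzyme, rose by 1.24 (22.4 ± 0.416 against 8.96 ± 1.07, SE 0.23, adjusted p = 0.0364). DERL3 lay lower in the state where these 2 called genes lay higher. The 16 genes as a list were split, with 10 above 0 and 6 below. Their median was 0.16, against 0.083 for all genes. SEL1L missed the threshold without summer active 2 or either arousal library, and ERO1B and EDEM3 missed it whichever library was left out. In a fit of the 2 states alone SEL1L (adjusted p = 0.0685), ERO1B (0.121) and EDEM3 (0.118) missed it too. With no filter ERO1B (adjusted p = 0.0608) and EDEM3 (0.0599) also did.

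Several members are also expressed by other cells, and markers of those cells moved between libraries. Epithelial markers (11 of 16 listed genes present) summed to 1940 in summer active 2, where SDC1 was highest, and to between 186 and 1084 elsewhere. The keratin gene KRT4 alone was at 1617 in summer active 2, while the gastric gene GKN1 was at 0 there and in 4 other libraries. In winter active 2, where SDC1 was at 22.8, GKN1 alone made 666 of the sum of 1084. Without KRT4 and GKN1 the sum was 323 in summer active 2, 418 in winter active 2 and between 185 and 801 in the other 6 libraries. The part of epithelial cells in the SDC1 values was not tested.

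Pancreatic acinar cells are secretory too, and also use genes such as DERL3 and FKBP11. Pancreatic markers (11 of 19 present, none at 0) summed to 1681 in torpor 1, 1003 in arousal 2, 416 in torpor 2, 157 in winter active 2 and 24.9 to 58.6 in the other 4 libraries. DERL3 was lowest in arousal 2, at 46.6, and similar in torpor 1 and torpor 2, at 110 and 107. FKBP11 was highest in winter active 1, at 73.8, where the pancreatic sum was 44.4. Hepatocyte markers (10 of 12 present) summed to 19870 in arousal 2, with albumin (ALB) at 12262, and to between 51.1 and 2750 elsewhere.

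POU2AF1, TNFRSF13B and IRF4 belong to B cells or T cells as well. B-cell identity genes (21 of 21 present) summed to 3572 and 4086 in summer active and to between 1102 and 2126 in November, and POU2AF1 and TNFRSF13B were highest in summer active 2, the library with the highest sum. T-cell markers (16 of 20 present) summed to 540 and 572 in summer active, 382 and 275 in torpor, 358 and 252 in arousal, and 542 and 359 in winter active. Erythroid markers (9 of 10 present) summed to 5965 and 8902 in summer active and to 12.7 to 154 in November. Macrophage markers (15 of 15 present) summed to 5182 in summer active 2 and to between 12813 and 21861 elsewhere, and neutrophil markers (9 of 10 present) to 12710 in torpor 1 and to between 1070 and 3688 elsewhere. What these shifts contribute to the member values was not tested.

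**Figure D4:**
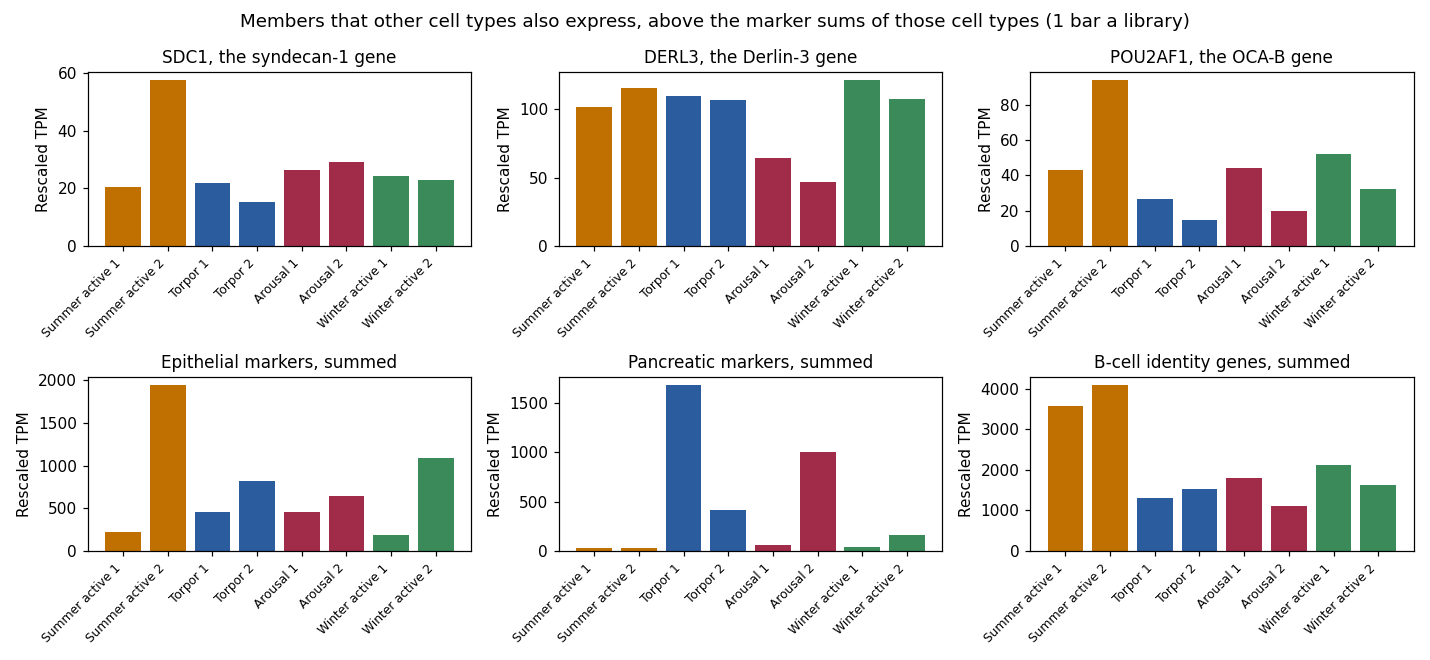
Rescaled TPM (y axis, from 0) in each of the 8 libraries (x axis, 1 bar a library) of SDC1, DERL3 and POU2AF1, above the summed markers of epithelium, pancreas and B cells. SDC1 peaks at 57.5 in summer active 2, as does the epithelial sum at 1940 (KRT4 at 1617), while DERL3 is lowest in arousal 2, where the pancreatic sum is 1003.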

How the data were processed

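Total RNA of whole spleen, cleared of genomic DNA on the column, was made into 8 Illumina libraries, per the labels' protocols. Per the submitters' processing notes, kallisto (version 0.46.2) and sleuth (version 0.30.0) were used. Which transcriptome was indexed, and how transcripts were summed to genes, is not stated in the labels. The authors deposited 1 value per gene and library, a signal named TPM whose columns do not sum to 1000000, so it is treated here as TPM rescaled between libraries. Groups and replicate numbers came from the sample titles. Whether a library is 1 animal is not stated, so p-values rest on the spread between replicate libraries, which may not be that between animals. In the main fit that spread was pooled over the states, with all 8 libraries. A comparison of 2 states therefore also draws on the spread within the states outside it.

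Genes averaging 1 or more were fitted as log2(value + 1) in limma (version 3.58.1, R 4.3.3), by eBayes with a trend, with all 8 libraries in 1 fit (4 residual and 3.29 prior degrees of freedom) and 7 comparisons. The script was first tested on simulated data. The members and gene lists were chosen with earlier results of these data known. Named genes are all members, the BAFF and APRIL genes, XBP1, antibody chain genes by symbol, the 2 smallest p of each pathway list in the comparison where it had most calls (November against summer active where it had none), and the 3 genes of highest Pearson's r with JCHAIN, MZB1 and TNFRSF17. The choice of GPRC5D, KRT4, GKN1, ALB, CD22, BCL6, all ratios and the reduced epithelial sum was made with their values in view. CD38 was not analysed here. Alternatives changed the pseudocount (0.1), the filter (none, or a mean of 5), the scaling (common totals, median of ratios, quantiles) and the eBayes step (robust). Others added a replicate block, fitted the compared states alone, or left out each of the 8 libraries in turn, which takes the spread of a lone replicate from the remaining states.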

Additional observations from a re-analysis of the deposited data

How the results depend on the processing

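The libraries' depth is not known, so its effect on these values could not be weighed, and each state rests on 2 libraries. DERL3 in arousal against summer active was the only member call, and the number of members called there went from 1 to 0 with no filter (adjusted p = 0.0615), with columns rescaled to 1000000 (0.426), under quantile normalization (0.0574), in a fit of the 2 states alone (0.148) and in every fit that left out 1 library (0 to 0). Members called went from 0 to 1 in winter active against summer active after rescaling (FKBP11, adjusted p = 0.0442), where 5.75% of all genes were called, and from 0 to 4 in November against summer active after rescaling, where 35.1% were. Without 1 library they ranged from 0 to 1 in torpor and in November against summer active, the call being SDC1 without summer active 1 (adjusted p = 0.0489 and 0.0428). Whether replicate numbers pair the libraries is not known, and correlations of deviations between states ran from -0.191 to 0.322. A replicate block left the members called as they were, at 1 in arousal and 0 in torpor against summer active. Of the other named genes it changed the call of VCAM1 in arousal against summer active (0.0402). Over all genes, leaving out 1 library moved the calls from 76 to between 9 and 312 in torpor, from 140 to between 15 and 374 in winter active, from 748 to between 25 and 677 in arousal, and from 395 to between 37 and 630 in November, each against summer active. Other settings gave 11 to 85, 32 to 779, 27 to 6099 and 244 to 4759. Within November they gave 0 to 445 in arousal and 0 to 4 in winter active, each against torpor. For winter active against arousal they gave 0 to 1. With columns rescaled, signs turned in torpor against summer active for IRF4 (0.092), DERL3 (0.39) and TNFRSF13B (0.18), and in arousal against summer active for MZB1 (0.42), FKBP11 (0.65), TNFRSF17 (0.43), SDC1 (0.44) and FKBP2 (0.029). They also turned for JCHAIN in winter active against torpor (0.17), SDC1 in winter active against summer active (0.013), PRDM1 (-0.062) and IRF4 (-0.099) in winter active against arousal, and DERL3 (0.27) and TNFRSF13B (0.18) in November against summer active. Rescaling moved the all-gene medians too, so these are differences from another zero. Under median-of-ratios rescaling DERL3 turned in torpor against summer active (0.035) and winter active against torpor (-0.0053), and TNFRSF13B in winter active against summer active (-0.016). Under quantile normalization JCHAIN (0.20) and TNFRSF17 (-0.16) turned in winter active against torpor, and IGLL5 had a difference of 0 in arousal against torpor and in winter active against arousal, since the top-ranked gene gets 1 value in all libraries. IGLL5 then had the same difference of 2.88 from summer active in torpor, winter active and November. Its adjusted p-values there (0.00129, 0.00129 and 0.000307) measure no spread of this gene, since its ranks were equal between replicates. Leaving out 1 library in torpor against summer active moved DERL3 from -0.094 to 0.087, TNFRSF13B from -0.77 to 0.34 and TNFRSF13C from -0.91 to 0.11. In winter active against torpor the range was -0.21 to 0.20 for JCHAIN, -0.20 to 0.84 for MZB1, -0.14 to 0.72 for FKBP11, -0.021 to 0.25 for TNFRSF17, -0.0055 to 0.16 for DERL3 and -0.12 to 0.61 for TNFRSF13B. In winter active against summer active it was -0.015 to 0.17 for DERL3, -0.52 to 0.58 for TNFRSF13B, -1.26 to 0.18 for SDC1 and -0.12 to 0.82 for IRF4. In arousal against summer active it was -0.39 to 1.17 for JCHAIN, -0.22 to 0.032 for FKBP11, -0.25 to 0.0067 for TNFRSF17, -1.03 to 0.41 for SDC1, -0.19 to 0.72 for PRDM1 and -0.78 to 0.092 for MZB1. In winter active against arousal it was -0.33 to 0.58 for PRDM1, -0.38 to 0.55 for IRF4 and -0.11 to 1.03 for POU2AF1. In November against summer active it was -0.090 to 0.34 for IRF4, -1.30 to 0.14 for SDC1, -0.95 to 0.16 for TNFRSF13B and -0.10 to 0.20 for PRDM1. The cause of these changes was not tested.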
